A study of Arabidopsis thaliana with 36 samples.

Results

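In roots of the otu5 mutant of Arabidopsis thaliana, 167 genes had lower RNA levels than in wild type (WT) on control medium and again on medium low in phosphate (Pi). They were chosen from the RNA values themselves. A gene was kept if its mean log2(RPKM + 0.5) over the 3 otu5 libraries was below that of the 3 WT libraries by at least 0.58 in each medium, and if its highest otu5 value was below its lowest WT value in each medium. RPKM scales the reads of a gene to the length of the gene and to how many reads of a library were mapped. The 167 genes were 0.818% of the 20411 genes that reached 1 RPKM in at least 3 of the 12 libraries, out of 33557 genes in the table. OTU5 (AT3G62940) itself was left out.

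The 4 groups were WT on control medium, WT on low Pi, otu5 on control medium and otu5 on low Pi, each with 3 libraries of polyadenylated RNA read at 100 bp. All plants grew on plates under continuous light, and roots were taken 14 d after germination. The mutant allele, the WT accession, the Pi concentrations and the number of plants in a library are not given in the labels, nor whether the replicates came from separate cultures, so the tests measure only the spread between these libraries. The series asked what OTU5 does in root development and in the root's changes under Pi starvation.

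OTU5 belongs to the ovarian tumour (OTU) proteases, enzymes that take ubiquitin off proteins. Plants short of Pi switch on Pi transporters and phosphatases, exchange membrane phospholipids for other lipids and change how the root grows. Among the genes described here are ion and solute transporters, proteins of the cell wall, enzymes of hormone and trehalose metabolism, transcription factors and abundant proteins of redox and stress metabolism.

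The targeted transcript matched the labels. OTU5 stood in control at 43.1, 39.98 and 39.6 RPKM in WT and at 1.33, 1.71 and 1.04 RPKM in otu5, and in low Pi at 40.6, 38.9 and 40.2 RPKM against 0.432, 0.999 and 1.00 RPKM. On either medium the exact two-sided permutation p was 0.1, and groups of 3 libraries cannot give a smaller one. All 12 root marker genes, among them the Casparian strip genes, had a mean of at least 1 RPKM in WT and 11 of the 12 in otu5. The 1 below was CASP5, which belongs to the 167 genes. Summed root markers stood at 4707 to 5666 RPKM in WT control, 4552 to 5177 in otu5 control, 4608 to 4799 in WT low Pi and 4128 to 4351 in otu5 low Pi. Summed markers of green shoot tissue (24 photosynthesis genes, of which 22 or 23 reached a mean of 1 RPKM in each group) stood at 1847 to 2302, 2557 to 2764, 1466 to 1863 and 1897 to 1967 RPKM in the same order. These markers thus differed between genotypes and media, and their part in the results was not tested. In whole roots, fewer cells of a type and less RNA per cell cannot be told apart.

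The genotype difference itself is given as a description, because it chose the genes. The median difference (otu5 minus WT) was -0.78 on the log2 scale in control and -0.94 in low Pi, against 0.00 and 0.01 over all genes tested. As a ratio of mean RPKM, the median level in otu5 was 54.4% of WT in control and 46.1% in low Pi. Wherever a pair of differences is given for a gene, it is otu5 minus WT on this log2 scale, in control first and in low Pi second. A difference of -1 or beyond was seen in 37 genes in control, in 75 in low Pi and in 29 on both media. The difference was the larger one in low Pi for 120 genes and in control for 47. It was larger by at least 0.5 in low Pi for 25 genes and in control for 4. Since both media entered the choice, this inequality was not tested. On each medium alone, more genes met the rule: 355 in control (1.74% of genes tested) and 491 in low Pi (2.41%).

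**Figure D1:**
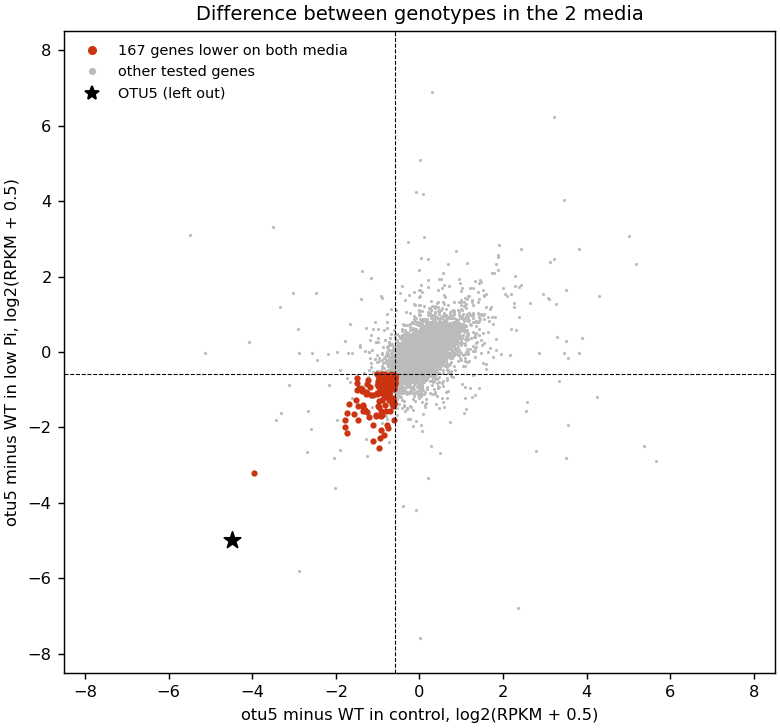
Difference between otu5 and WT in control (horizontal axis) and in low Pi (vertical axis) for each gene tested, both as log2(RPKM + 0.5). The 167 genes (red) lie below -0.58 on both axes (dashed lines), and OTU5 (star), which was left out, lies at -4.49 and -4.98.

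In 104 of the 167 genes all 6 otu5 libraries lay below all 6 WT libraries (4.49% of all genes tested). The rule used these values, so nothing is read from the count. In the other 63 the WT libraries of one medium overlapped the otu5 libraries of the other. With limma's adjusted p under 0.05 over all genes, 124 of the 167 were lower in control (5.52% of all genes were) and 144 in low Pi (5.91% of all genes were). Of the 167, 112 were called in both media and 11 in neither. Nothing is read from these counts, which rest on the values of the rule. The WT level over 6 libraries ran from 0.990 to 1376 RPKM with a median of 10.4, against 15.5 RPKM over all genes tested. The expression filter was passed only through WT libraries by 16 of the 167, which therefore had to be lower in otu5. CASP5, FRO4, CYP78A5, AT2G01422 and AT5G50530, described below, were among these 16. Of the 167, 4 genes were listed at 0 in at least 1 library.

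The genes nearest the limit were AT1G67150, at -0.89 in control and -0.58 in low Pi, and AT3G58980, at -0.58 and -0.66. Just outside lay RBL7 (AT4G23070), at -0.61 and -0.58, and AT4G29930, at -0.67 and -0.58. Their values were almost the same on both sides of the limit.

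The 167 genes also varied together within groups, which the rule did not ask for. In WT low Pi, replicate 1 was the highest of the 3 libraries for 122 of the 167 genes (73.1%, against 33.6% of all genes tested) and replicate 3 was the lowest for 124 (74.3%, against 34.6%). Their median deviations from the group mean were 0.27 and -0.29 on the log2 scale, while those over all genes were 0.00. In otu5 control, replicate 2 was the lowest for 114 genes (68.3%, against 35.9%), with a median deviation of -0.15. The 167 genes thus deviated together from library to library and are not separate measurements of a condition.

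Other genes also deviated between the same WT low Pi libraries. The 14 tested genes of Pi scavenging and lipid remodelling had median deviations of 0.44 in replicate 1 and -0.48 in replicate 3, and the 20 of Pi signalling and transport had 0.27 and -0.33. The 41 root hair genes had 0.26 and -0.24. The 180 genes that met the same rule in the opposite direction (higher in otu5 on both media) had -0.26 and 0.19. Without WT low Pi replicate 1, 148 genes met the rule, 141 of them among the 167. Without replicate 3, 200 met it, 163 of them among the 167.

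Transporters of ions were among the genes with the lowest values relative to WT. HKT1 (AT4G10310) carries Na+ out of the root xylem, and SKOR (AT3G02850) is the channel of the stele that releases K+ into the xylem. HKT1 stood in control at 10.8, 9.28 and 20.1 RPKM in the WT libraries against 3.35, 2.76 and 4.47 in otu5, and in low Pi at 6.03, 12.1 and 7.83 against 1.22, 1.98 and 1.31. On control medium SKOR measured 9.37, 8.39 and 12.7 RPKM in WT and 3.62, 2.84 and 4.36 RPKM in otu5, and on low Pi it measured 2.19, 2.97 and 2.702 RPKM in WT and 0.831, 1.19 and 1.25 RPKM in otu5. HKT1 in otu5 was at 26.3% of the WT level in control and 17% in low Pi, and all 6 otu5 libraries lay below all 6 WT libraries. SKOR in otu5 was at 35.5% of the WT level in control and 41.6% in low Pi. The otu5 control libraries of SKOR overlapped the WT low Pi libraries. For comparison, 4 other K+ channels and transporters (AKT1, KAT3, GORK and HAK5) lay from -0.03 to 0.26 in control and from 0.13 to 0.44 in low Pi. None of these 4 shared this direction beyond -0.03. They do not cover the whole families of K+ channels and transporters.

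VTL5 (AT3G25190) and VTL2 (AT1G76800) are relatives of the vacuolar iron transporter. VTL5 was found at 144, 118 and 126 RPKM in WT control and 41.8, 28.9 and 42.4 RPKM in otu5 control, with 158, 148 and 112 RPKM in WT low Pi and 35.7, 40.9 and 28.2 RPKM in otu5 low Pi. It was the more abundant of the pair, at 29.1% of the WT level in control and 25.0% in low Pi, with no overlap of the genotypes over all 12 libraries. VTL2 stood in control at 8.54, 8.84 and 6.24 RPKM in the WT libraries against 4.91, 2.74 and 5.15 in otu5, and in low Pi at 4.07, 4.34 and 2.44 against 1.41, 1.51 and 1.70. The only other relative tested, VTL1 (AT1G21140), was also lower, at -0.51 and -0.49, short of the limit. FRO4 (AT5G23980) belongs to the metal reductases of the root surface. On control medium FRO4 measured 1.12, 0.534 and 0.882 RPKM in WT and 0.113, 0 and 0.244 RPKM in otu5, and on low Pi it measured 4.63, 3.66 and 1.73 RPKM in WT and 0.0946, 0.447 and 0.112 RPKM in otu5. Its values in otu5 were near 0 on both media, and 1 library was listed at 0. Of the same family, FRO2 (AT1G01580) lay at -0.70 and 0.18, FRO3 (AT1G23020) at 0.14 and 0.14 and FRO8 (AT5G50160) at 0.18 and 0.11.

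NRT2.4 (AT5G60770), a high-affinity nitrate transporter of nitrogen-starved roots, was the only 1 of 5 tested NRT2 genes among the 167. NRT2.4 was found at 6.33, 5.01 and 4.99 RPKM in WT control and 2.88, 2.85 and 2.58 RPKM in otu5 control, with 4.69, 1.92 and 1.86 RPKM in WT low Pi and 1.02, 0.566 and 1.61 RPKM in otu5 low Pi. The other 4 tested NRT2 genes lay from -0.13 to 2.97 in control and from -0.50 to 1.53 in low Pi, with medians of 0.98 and 0.70. SULTR1;1 (AT4G08620) takes up sulfate with high affinity. SULTR1;1 stood in control at 4.82, 4.95 and 3.94 RPKM in the WT libraries against 2.43, 2.25 and 2.38 in otu5, and in low Pi at 5.13, 5.37 and 3.66 against 1.11, 1.37 and 1.93. The other 9 sulfate transporters tested lay from -0.54 to 1.17 in control and from -1.05 to 0.86 in low Pi. Its 12 libraries thus split by genotype, while its family lay on both sides of 0.

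TIP2;3 (AT5G47450) is an aquaporin of the vacuolar membrane. On control medium TIP2;3 measured 109, 72.9 and 93.4 RPKM in WT and 36.1, 25.8 and 34.5 RPKM in otu5, and on low Pi it measured 40.1, 36 and 27.4 RPKM in WT and 15.5, 23.1 and 24.9 RPKM in otu5. The gap between genotypes was -1.49 in control and -0.70 in low Pi, so it was wider in control. The other 6 tested tonoplast intrinsic proteins were also below 0, from -0.79 to -0.07 in control and from -0.59 to -0.01 in low Pi. The UMAMIT family includes exporters of amino acids, and 3 of its 36 tested genes were among the 167. UMAMIT17 (AT4G08300) was found at 20.3, 15.5 and 12.8 RPKM in WT control and 6.55, 4.83 and 6.57 RPKM in otu5 control, with 9.76, 5.46 and 4.26 RPKM in WT low Pi and 2.12, 2.08 and 1.16 RPKM in otu5 low Pi. UMAMIT17 showed the lowest relative level of these 3, at -1.35 and -1.57. UMAMIT4 (AT3G18200) lay at -0.72 and -0.98 and UMAMIT21 (AT5G64700) at -0.63 and -0.68. The other 33 lay from -1.33 to 2.38 in control and from -1.50 to 2.1 in low Pi, so the family as a whole had no common direction.

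**Figure D2:**
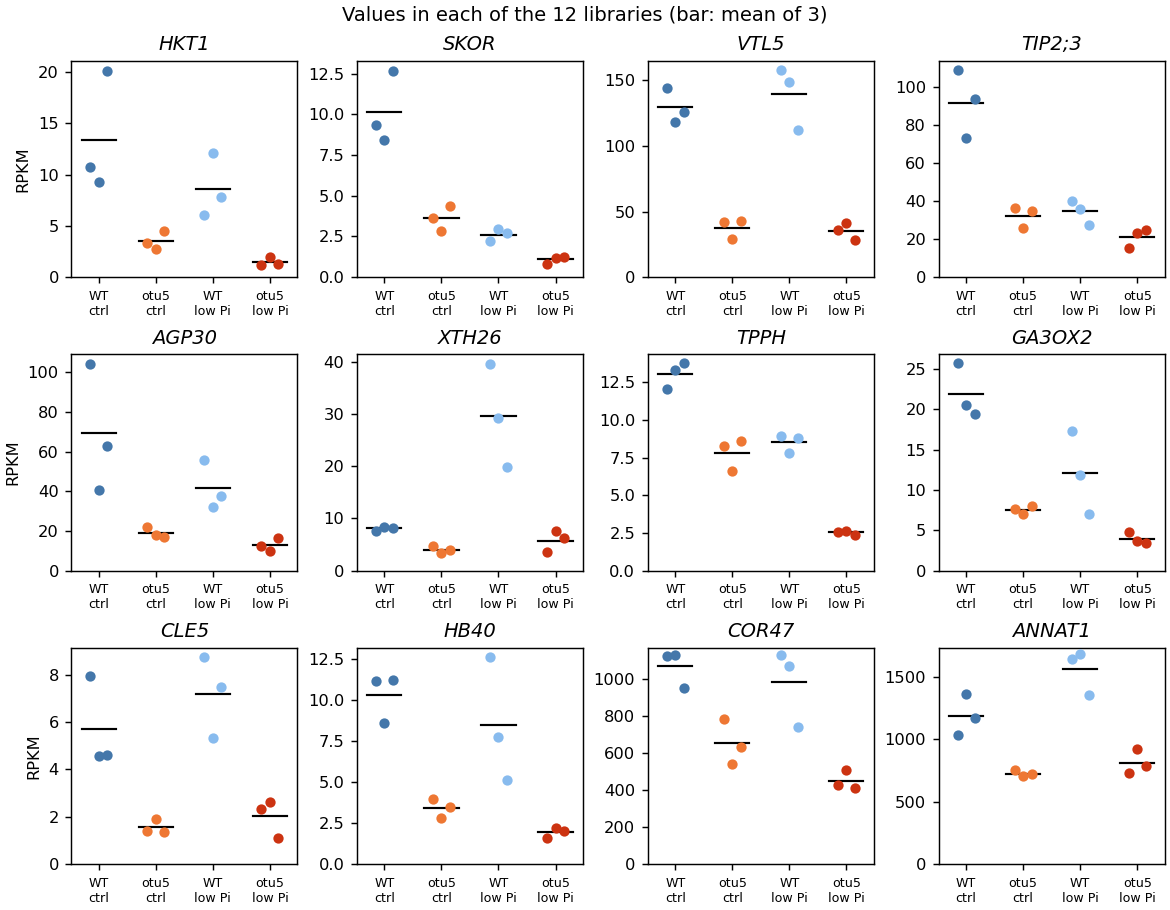
RPKM of 12 of the 167 genes in each library, with a bar for the mean of 3. On each medium every otu5 point (orange, red) lies below every WT point (blue, light blue), as the rule requires, while the order of the media differs from gene to gene: SKOR and TIP2;3 were lower in low Pi and XTH26 in WT was higher.

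Proteins of the cell surface and wall formed a further group. Arabinogalactan proteins are heavily glycosylated proteins of the wall and plasma membrane, and 4 of 27 tested were among the 167. AGP30 (AT2G33790) stood in control at 104, 40.6 and 62.9 RPKM in the WT libraries against 21.98, 18.1 and 17.1 in otu5, and in low Pi at 56.0, 32.0 and 37.6 against 12.6, 9.98 and 16.7. AGP30 in otu5 was at 27.5% of the WT level in control and 31.3% in low Pi, and the genotypes did not overlap over 12 libraries, although WT replicate 1 was the highest of its group on both media. AGP22 (AT5G53250) lay at -0.73 and -1.06, AGP14 (AT5G56540) at -0.72 and -0.72 and AGP13 (AT4G26320) at -0.59 and -0.82. These 3 were abundant, with WT control means of 139, 253 and 111 RPKM. The other 23 lay from -0.56 to 0.27 in control and from -0.95 to 0.51 in low Pi, with medians of 0.00 and -0.08. The fasciclin-like FLA13 (AT5G44130) lay at -0.73 and -1.28.

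XTH enzymes cut and rejoin xyloglucan, and expansins loosen the wall. XTH26 (AT4G28850) is on the root hair list. On control medium XTH26 measured 7.63, 8.43 and 8.17 RPKM in WT and 4.66, 3.37 and 4.02 RPKM in otu5, and on low Pi it measured 39.6, 29.3 and 19.9 RPKM in WT and 3.50, 7.50 and 6.20 RPKM in otu5. In WT the 3 low Pi libraries of XTH26 were above the 3 control libraries, while in otu5 the 2 sets overlapped, so the genotypes differed by -0.93 in control and -2.28 in low Pi. XTH21 (AT2G18800) was found at 19.5, 20.4 and 20.9 RPKM in WT control and 11.7, 8.14 and 11 RPKM in otu5 control, with 13.8, 14.1 and 12.8 RPKM in WT low Pi and 6.01, 7.10 and 5.72 RPKM in otu5 low Pi. The other 25 tested XTH genes lay from -0.52 to 1.42 in control and from -1.17 to 0.92 in low Pi. EXPB1 (AT2G20750) lay at -0.80 and -0.60 and the expansin-like EXLB1 (AT4G17030) at -0.60 and -0.88, against a range from -0.43 to 1.33 in control and from -0.93 to 0.80 in low Pi for the other 22 expansins.

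CASP5 (AT5G15290) belongs to the proteins that scaffold the Casparian strip, the barrier of the endodermis. CASP5 stood in control at 3.25, 2.13 and 3.58 RPKM in the WT libraries against 0.652, 0.440 and 1.12 in otu5, and in low Pi at 2.54, 1.22 and 1.28 against 0.932, 0.514 and 0.665. The gap of CASP5, which passed the expression filter only through WT libraries, was -1.51 in control and -0.82 in low Pi. Its 4 relatives tested were also lower in otu5 but by less, from -0.33 to -0.15 in control and from -0.48 to -0.29 in low Pi.

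Trehalose-6-phosphate phosphatases (TPP) remove the sugar signal trehalose-6-phosphate, and 3 of 8 tested were among the 167. On control medium TPPH (AT4G39770) measured 12.04, 13.3 and 13.8 RPKM in WT and 8.29, 6.61 and 8.58 RPKM in otu5, and on low Pi it measured 8.93, 7.84 and 8.82 RPKM in WT and 2.57, 2.65 and 2.36 RPKM in otu5. TPPE (AT2G22190) was found at 18.0, 18.95 and 16.0 RPKM in WT control and 11.1, 7.21 and 8.69 RPKM in otu5 control, with 10.5, 10.8 and 6.35 RPKM in WT low Pi and 3.70, 4.54 and 4.48 RPKM in otu5 low Pi. TPPI (AT5G10100) stood in control at 42.7, 42.3 and 37.0 RPKM in the WT libraries against 29.1, 18.8 and 24.04 in otu5, and in low Pi at 35.1, 29.4 and 19.8 against 13.2, 13.5 and 12. All 3 were lowest in otu5 on low Pi. Of the other 5, TPPB (AT1G78090) was also lower on both media, at -0.24 and -0.69, and missed the limit in control only. TPPD (AT1G35910) lay at -0.22 and 0.03, TPPA (AT5G51460) at 0.35 and 0.36, TPPF (AT4G12430) at 0.45 and 0.52 and TPPJ (AT5G65140) at 1.11 and 0.70. The family thus held genes at both ends, with TPPJ at 44.9 RPKM in WT control and 92.8 RPKM in otu5 control on average.

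**Figure D3:**
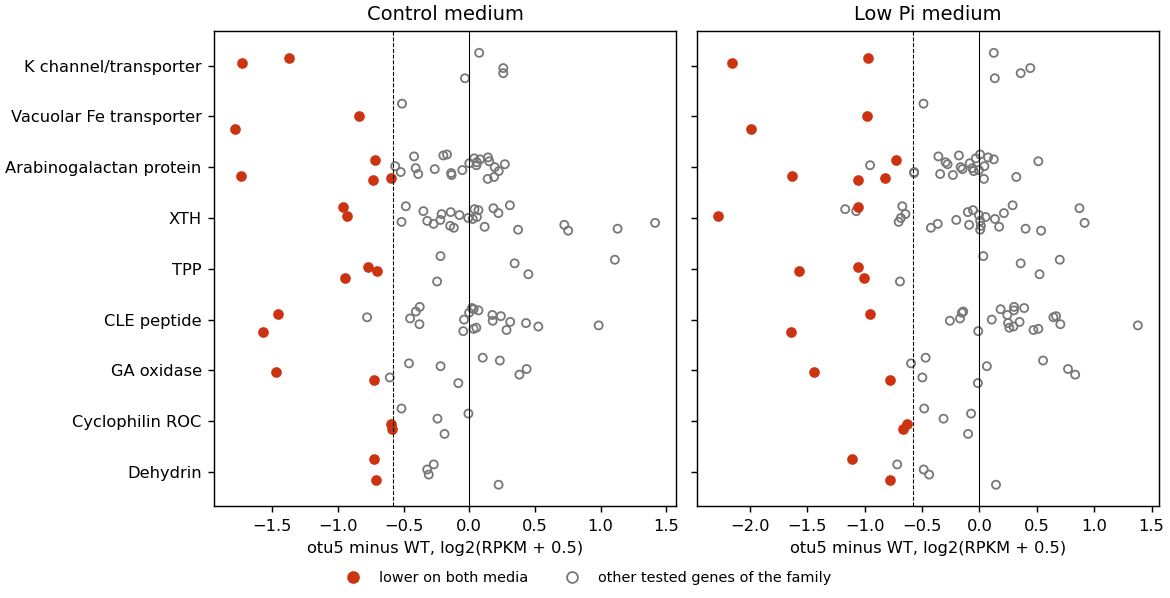
Difference between otu5 and WT, log2(RPKM + 0.5), for tested genes of 9 gene families in control (left) and low Pi (right). Red points are among the 167 genes and open points are other genes of the family, which in most families scatter on both sides of 0. For K+ channels and transporters the open points are only AKT1, KAT3, GORK and HAK5. The dashed line is -0.58, and families were picked after values were seen.

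Genes of hormone metabolism and signalling peptides came next. GA3OX2 (AT1G80340) makes active gibberellin, and GA2OX1 (AT1G78440) inactivates it. On control medium GA3OX2 measured 25.7, 20.5 and 19.4 RPKM in WT and 7.60, 6.97 and 7.98 RPKM in otu5, and on low Pi it measured 17.3, 11.8 and 7.06 RPKM in WT and 4.72, 3.62 and 3.38 RPKM in otu5. Its level in otu5 was 34.4% of the WT level in control and 32.4% in low Pi. GA2OX1 was found at 3.35, 3.38 and 3.36 RPKM in WT control and 1.43, 1.70 and 2.47 RPKM in otu5 control, with 1.76, 2.15 and 1.23 RPKM in WT low Pi and 0.765, 0.994 and 0.591 RPKM in otu5 low Pi. Both of these genes were lower in otu5, and their families also held higher ones: GA2OX2 (AT1G30040) lay at 0.44 and 0.77 and GA20OX3 (AT5G07200) at 0.38 and 0.83. GA3OX1 (AT1G15550), which catalyses the same step as GA3OX2, lay at -0.61 and -0.50, and the other 8 gibberellin oxidases tested, GA3OX1 among them, ranged from -0.61 to 0.44 in control and from -0.60 to 0.83 in low Pi. IAMT1 (AT5G55250), which methylates the auxin indole-3-acetic acid, lay at -0.97 and -1.29, and the cytochrome P450 CYP78A5 (AT1G13710) at -1.70 and -1.38.

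CLE5 (AT2G31083) and CLE6 (AT2G31085) encode small signalling peptides and are next to each other in the genome. CLE5 stood in control at 7.95, 4.56 and 4.62 RPKM in the WT libraries against 1.39, 1.88 and 1.35 in otu5, and in low Pi at 8.75, 5.31 and 7.50 against 2.32, 2.61 and 1.105. On control medium CLE6 measured 7.17, 6.78 and 5.55 RPKM in WT and 1.84, 2.23 and 2.06 RPKM in otu5, and on low Pi it measured 7.20, 7.70 and 6.18 RPKM in WT and 4.30, 3.77 and 2.34 RPKM in otu5. In both, all 6 otu5 libraries lay below all 6 WT libraries. The other 21 tested CLE genes lay from -0.78 to 0.99 in control and from -0.26 to 1.38 in low Pi, with medians of 0.03 and 0.30.

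Among transcription factors, HB40 (AT4G36740), of the homeodomain leucine zipper class, had the largest gap. HB40 was found at 11.1, 8.56 and 11.2 RPKM in WT control and 3.95, 2.80 and 3.49 RPKM in otu5 control, with 12.6, 7.74 and 5.10 RPKM in WT low Pi and 1.56, 2.18 and 2.03 RPKM in otu5 low Pi. HB40 in otu5 was at 33.1% of the WT level in control and 22.7% in low Pi. HB53 (AT5G66700), of the same class, lay at -0.99 and -0.84. Of 27 tested AGAMOUS-like MADS-box genes, AGL79 (AT3G30260) lay at -0.90 and -1.68, AGL19 (AT4G22950) at -0.97 and -1.45 and AGL14 (AT4G11880) at -0.73 and -1.09. The other 24 lay from -0.69 to 0.60 in control and from -0.66 to 0.63 in low Pi. RAP2.6 (AT1G43160), of the AP2/ERF class, lay at -0.88 and -0.75, MYB49 (AT5G54230) at -0.64 and -0.63 and CIA2 (AT5G57180), which acts on genes of chloroplast protein import, at -1.25 and -0.84. ELF4 (AT2G40080), a part of the circadian clock, lay at -0.75 and -0.66, the kinase SNRK2.7 (AT4G40010) at -0.92 and -1.57 and the D-type cyclin CYCD1;1 (AT1G70210) at -0.70 and -0.93.

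Genes of stress responses and other functions were the most abundant of the 167. ANNAT1 (AT1G35720) stood in control at 1034, 1367 and 1169 RPKM in the WT libraries against 754, 703 and 719 in otu5, and in low Pi at 1647, 1685 and 1354 against 728, 919 and 787. ANNAT1 encodes annexin 1, which binds phospholipids and Ca2+, and its genotypes did not overlap over 12 libraries. On control medium COR47 (AT1G20440) measured 1125, 1127 and 952 RPKM in WT and 784, 539 and 632 RPKM in otu5, and on low Pi it measured 1131, 1069.9 and 741 RPKM in WT and 427, 510.1 and 411 RPKM in otu5. COR47 is a dehydrin, a hydrophilic protein of cold and drought, as is LTI30 (AT3G50970), which lay at -0.71 and -0.78. Of the other 4 dehydrins tested, 3 were also lower on both media: ERD10 (AT1G20450) at -0.27 and -0.72, ERD14 (AT1G76180) at -0.31 and -0.44 and HIRD11 (AT1G54410) at -0.32 and -0.49. XERO1 (AT3G50980), with means under 1 RPKM in each group, lay at 0.22 and 0.14. AT1G13930, for which RefSeq gives no symbol, lay at -0.77 and -0.96, from a WT control mean of 1409 RPKM, and AT3G53980 lay at -0.88 and -0.84. MLP328 (AT2G01520), of the major latex protein family, lay at -1.26 and -1.08, with WT control and otu5 control means of 819.8 ± 29.4 and 348 ± 77.7 RPKM (SD, n = 3).

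ROC1 (AT4G38740) and ROC5 (AT4G34870) are cyclophilins, which help proteins to fold. ROC5 was found at 931, 943 and 938 RPKM in WT control and 598, 643 and 624 RPKM in otu5 control, with 948, 963 and 887 RPKM in WT low Pi and 581, 637 and 592 RPKM in otu5 low Pi. ROC1 stood in control at 489, 467 and 494 RPKM in the WT libraries against 296, 352 and 317 in otu5, and in low Pi at 585, 506 and 533 against 342, 335 and 347. Both had narrow spreads and gaps just past the limit, -0.59 and -0.63 for ROC5 and -0.59 and -0.66 for ROC1. ROC3 (AT2G16600), the most abundant of the other 4 tested cyclophilins with a ROC name, lay short of it, at -0.52 and -0.48. Cyclophilins under other names were not looked up.

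Several enzymes of redox and secondary metabolism were also among the 167. DHAR1 (AT1G19570), which regenerates ascorbate, lay at -0.59 and -0.80. The methionine sulfoxide reductases MSRB5 (AT4G04830) and MSRB6 (AT4G04840), which repair oxidised methionine and lie close to each other, lay at -0.73 and -0.90 and at -0.99 and -1.44. The thioredoxin TRX5 (AT1G45145) lay at -0.72 and -1.16, the peroxidase PRX25 (AT2G41480) at -0.90 and -1.28 and the ferredoxin FD1 (AT1G10960) at -0.60 and -0.61. The glutathione transferases GSTU28 (AT1G53680) and GSTU14 (AT1G27140) lay at -1.01 and -1.09 and at -0.63 and -0.71, and GLYI4 (AT1G15380), related to glyoxalase I, at -0.76 and -1.01. Of the phenylpropanoid enzymes, TT5 (AT3G55120), the chalcone isomerase, lay at -0.74 and -0.83 and UGT84A2 (AT3G21560), which glucosylates sinapate, at -0.70 and -0.76. The methyltransferase HOL1 (AT2G43910) lay at -0.85 and -0.74 and WIH3 (AT3G49845) at -0.59 and -0.66.

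The lowest relative level of all was that of AT2G01422, which RefSeq lists as a noncoding RNA. On control medium AT2G01422 measured 2.68, 18.8 and 11.2 RPKM in WT and 0.182, 0.0673 and 0 RPKM in otu5, and on low Pi it measured 11.2, 0.608 and 7.03 RPKM in WT and 0, 0 and 0 RPKM in otu5. All 3 otu5 libraries in low Pi were listed at 0 and the WT libraries spanned from 0.608 to 18.8 RPKM, so the size of the gap is uncertain. AT2G01422 passed the expression filter only through WT libraries and therefore had to be lower in otu5. AT5G23903, a short gene with no symbol in RefSeq, stood at 2.87, 4.38 and 1.37 RPKM in WT control and at 0.428, 0.433 and 0.369 in otu5 control. AT5G19890 was more abundant. It stood in control at 55.5, 127 and 96.9 RPKM in the WT libraries against 46.4, 39.8 and 48.2 in otu5, and in low Pi at 56.6, 119.5 and 80.7 against 9.65, 27.3 and 9.35. Its gap was -0.97 in control and -2.55 in low Pi.

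The low Pi effect averaged over the genotypes is not a contrast of the rule, and with equal spread in the groups it would be uncorrelated with both genotype differences. The spread was not equal: the median SD of the 167 genes was 0.32 on the log2 scale in WT low Pi against 0.20 in otu5 low Pi, 0.16 in WT control and 0.20 in otu5 control, while over all genes it was 0.10 in each group. The averaged effect is therefore not fully independent of the choice of genes, and how far this moves the counts was not tested. It compares the 6 low Pi libraries with the 6 control libraries, with each genotype given the same weight. By limma with Benjamini-Hochberg adjustment over all genes tested, 52 of the 167 fell in low Pi (31.1%, against 8.52% of all genes) and 7 rose (4.19%, against 9.65% of all genes). The other 108 did not pass the test. The median effect was -0.19 on the log2 scale, against -0.01 over all genes, although the median SE was larger for the 167 (0.135) than over all genes (0.0662). The 180 genes higher in otu5 on both media showed the opposite balance, with 57 that rose (31.7%) and 9 that fell (5%). By genotype, the median difference between media was -0.10 in WT and -0.26 in otu5. These last values share libraries with the rule and have no test.

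**Figure D4:**
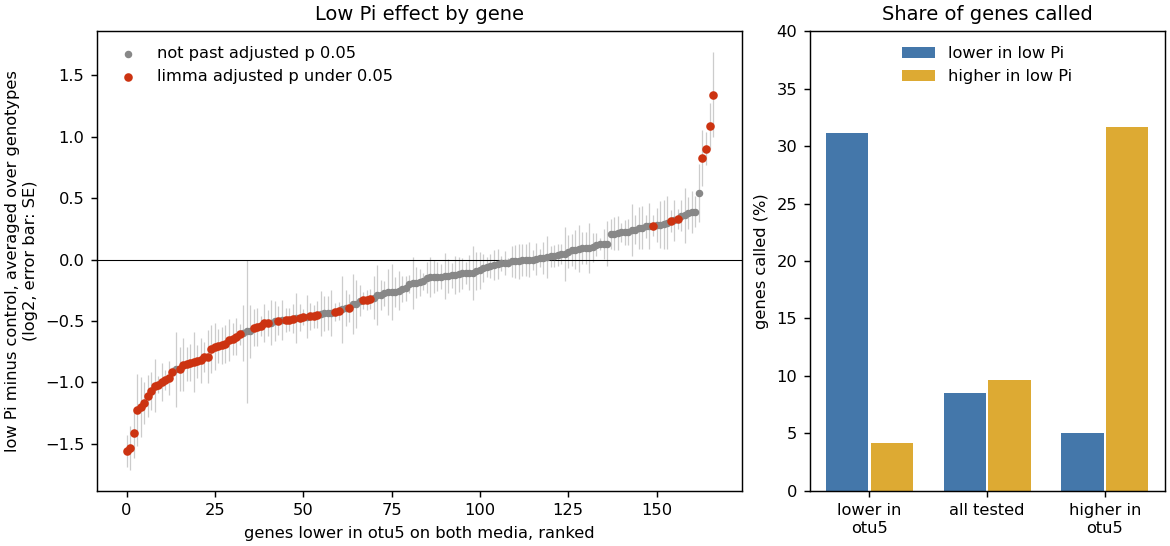
Left, low Pi minus control averaged over the genotypes (log2, with SE) for the 167 genes in rank order, with genes past limma's adjusted p of 0.05 in red. Right, the share of genes called lower and higher in low Pi among the 167, among all genes tested and among the 180 genes higher in otu5: falls prevail in the first set (31.1%) and rises in the last (31.7%).

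Of the 52 genes that fell, 41 had low Pi and control libraries that did not overlap in WT, 47 in otu5 and 37 in both. Among the 1738 genes that fell over all genes tested, the shares were 73.2%, 81.1% and 55.3%. Of all 59 calls, 34 falls and 2 rises passed in each alternative setting and with each library left out. A further 8 calls, NRT2.4, GA2OX1 and BGLU24 among them, passed in every setting that could test them, but these genes do not reach the stricter filter of 5 RPKM in 3 libraries. Without WT low Pi replicate 1 the fit called 64 falls among the 167 and 5 rises, and without WT low Pi replicate 3 it called 46 and 9. The number of rises is small and dropped to 3 without WT control replicate 3 or without WT low Pi replicate 2, and to 4 without WT control replicate 1, otu5 control replicate 2 or otu5 low Pi replicate 2. Over all 12 such fits there were 41 to 64 falls. Pi scavenging genes rose in 13 of 14 tested and Pi signalling and transport genes in 12 of 20. Photosynthesis genes fell in 19 of 23 tested, and their part in the falls of the 167 was not tested.

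Several transport genes were among the falls. SKOR fell by 1.56 on the log2 scale (SE 0.13, adjusted p = 7.16e-05), the largest fall among the 167, and its 6 low Pi libraries all lay below the 6 control libraries of the same genotype. UMAMIT17 changed by -1.41 (SE 0.20, adjusted p = 0.00158), VTL2 (AT1G76800) by -1.11 (SE 0.17, adjusted p = 0.00196), NRT2.4 by -1.03 (SE 0.22, adjusted p = 0.00922) and TIP2;3 by -1.0 (SE 0.15, adjusted p = 0.00234). UMAMIT21 and the mechanosensitive channel MSL5 (AT3G14810) fell less, with -0.47 and -0.64 on the same scale. VTL5 did not pass (SE 0.13, adjusted p = 0.991), and its control and low Pi libraries overlapped in both genotypes. AT4G37700, AT5G46890 and AT5G46900 had -1.53, -1.23 and -1.20, and all 3 passed.

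All 3 TPP genes fell. TPPH changed by -1.02 (SE 0.07, adjusted p = 1.89e-05), TPPE by -0.96 (SE 0.14, adjusted p = 0.00158) and TPPI by -0.71 (SE 0.14, adjusted p = 0.0066). TPPH was narrow in every group, with low Pi libraries from 2.36 to 2.65 RPKM in otu5. TPPB, which is outside the 167, also fell, by 0.65 on the log2 scale, while TPPA, TPPD, TPPF and TPPJ did not pass. The 3 named genes of gibberellin and auxin metabolism fell as well: GA3OX2 changed by -0.89 (SE 0.18, adjusted p = 0.00776), GA2OX1 (AT1G78440) by -0.85 (SE 0.14, adjusted p = 0.00279) and IAMT1 by -0.82 (SE 0.18, adjusted p = 0.0123). Of the 10 gibberellin oxidases tested, 3 fell and 2 rose, the rises being those of GA2OX2 by 0.50 and GA20OX3 by 0.76 on the log2 scale, both outside the 167. Further falls were those of GLYI4 with -0.92, XTH21 with -0.61, AGP13 with -0.52, CIA2 with -0.48, MYB49 with -0.45, FD1 with -0.43 and CYCD1;1 with -0.33.

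Few genes rose. XTH26 changed by 1.09 (SE 0.19, adjusted p = 0.00418), the beta-glucosidase gene BGLU24 (AT5G28510) by 0.90 (SE 0.13, adjusted p = 0.0017) and AT4G34419 by 0.33 (SE 0.08, adjusted p = 0.0172). BGLU24 stood in control at 2.02, 2.35 and 1.98 RPKM in the WT libraries against 1.13, 1.097 and 1.15 in otu5, and in low Pi at 3.23, 4.51 and 6.07 against 2.89, 2.69 and 1.95. The rise of BGLU24 was thus present in both genotypes, since its low Pi libraries lay above the control libraries in each. XTH26 had no such separation in otu5.

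Some calls were lost when a single library was left out. AT5G22555, whose genotype differences were -1.03 and -1.67, had the largest rise, 1.34 (SE 0.35, adjusted p = 0.0243), and its otu5 low Pi replicate 2 stood at 21.6 RPKM beside 4.85 and 3.87 RPKM. Leaving out replicate 1 or 3 of WT control, replicate 2 or 3 of WT low Pi or replicate 2 of otu5 control removed the call, with adjusted p from 0.0505 to 0.0575. FRO4 had 0.83 (SE 0.23, adjusted p = 0.0299), and leaving out replicate 2 or 3 of WT control, 1 or 2 of WT low Pi, 1 or 2 of otu5 control or 2 of otu5 low Pi removed its call, with adjusted p from 0.0515 to 0.0694. HKT1 had -0.79 (SE 0.22, adjusted p = 0.0309), and leaving out replicate 3 of WT control, 1 or 3 of WT low Pi, 1 or 3 of otu5 control or 1 or 3 of otu5 low Pi removed its call, with adjusted p from 0.0528 to 0.0769. In each of those fits these 3 effects kept their direction.

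Of the 8 genes with the highest WT levels, 5 did not pass the test between media. ROC5 had -0.03 (SE 0.04, adjusted p = 0.689), DHAR1 0.03 (SE 0.09, adjusted p = 0.867) and COR47 -0.33 (SE 0.12, adjusted p = 0.088), of which COR47 passed with a replicate block in WT alone (adjusted p = 0.0484). ROC1 and AT3G53980 had 0.12 and -0.13, and ROC1 passed without otu5 control replicate 2 (adjusted p = 0.0459). AT1G13930 fell, with -0.33 (SE 0.07, adjusted p = 0.00808). MLP328 had -0.55 (SE 0.15, adjusted p = 0.0272) and passed only with all libraries or without replicate 2 of WT control, 1 of WT low Pi, 2 of otu5 control or 3 of otu5 low Pi, and otherwise had an adjusted p from 0.0529 to 0.0659. ANNAT1 had 0.28 (SE 0.08, adjusted p = 0.0448) and passed only with all libraries or without replicate 2 of WT control, 3 of WT low Pi or 1 of otu5 low Pi, and otherwise had an adjusted p from 0.0563 to 0.0996.

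For 3 genes with large genotype gaps the test between media gave the following. AGP30 had -0.60 (SE 0.23, adjusted p = 0.0985) and HB40 -0.51 (SE 0.18, adjusted p = 0.0783), and neither passed. AGP30 did pass with a replicate block (adjusted p = 0.0389), with that block in WT alone (adjusted p = 0.0154) and without WT control replicate 2 (adjusted p = 0.0313), and HB40 without WT low Pi replicate 1 (adjusted p = 0.0101). CLE5 had 0.29 (SE 0.20, adjusted p = 0.36) and did not pass.

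On 15 lists of Pi, iron, root hair, endodermis, suberin, photosynthesis, defence, jasmonate, salicylate, nitrate, heat shock, cell cycle, DNA methylation and auxin genes, 249 genes were tested and 3 of them (1.2%) were among the 167, against 0.818% of all genes, a share close to the background at this count. The 3 were XTH26 on the root hair list, CASP5 on the endodermis list and NRT2.4 on the nitrate list. The other 12 lists had none, including Pi signalling and transport (20 tested), Pi scavenging and lipids (14) and iron uptake (24). Over the 41 tested root hair genes of the list the median difference was -0.01 in control and -0.50 in low Pi. XTH26 alone of these 41 met the rule on both media. The list does not hold every root hair gene. AT1G05990, which RefSeq also names RHS1 (root hair specific 1), is not on it but was among the 167, at -0.63 and -0.83.

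RefSeq (assembly TAIR10.1) listed all 167 genes, 77 of them with a symbol. Of the 167, 164 (98.2%) were protein-coding, against 97.2% of all genes tested, 2 were transcribed pseudogenes and 1 was a noncoding RNA. The median locus was 1793 bp long, against 2342 bp over all genes tested. Chromosomes 1 to 5 held 40, 21, 31, 30 and 45 of them (23.95%, 12.6%, 18.6%, 18.0% and 26.9%, against 26.5%, 15.2%, 19.8%, 15.3% and 23.3% of all genes tested). None lay within 20 genes of OTU5 on either side, a window with 32 tested genes, and the nearest was 198 genes away.

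There were 5 pairs next to each other in gene order: CLE5 with CLE6, AT5G46890 with AT5G46900, AT5G50560 with AT5G50565, AT5G50565 with AT5G50562 and AT5G62330 with AT5G62340. AT5G62340 was the more abundant of the last pair. It stood in control at 74.0, 36.5 and 57.9 RPKM in the WT libraries against 15.7, 20.6 and 20.02 in otu5, and in low Pi at 62.4, 43.8 and 52.7 against 21.96, 20.1 and 22.3. Its neighbour AT5G62330 lay at -1.49 and -1.02. Neighbours of similar sequence could share reads, and how such reads were counted is not given.

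A stretch of chromosome 5 held 5 of the 167 genes: AT5G50530, AT5G50560, AT5G50565, AT5G50562 and AT5G50665. AT5G50560 was found at 40.5, 48.9 and 37.6 RPKM in WT control and 24.4, 16.9 and 15.5 RPKM in otu5 control, with 46.1, 53.7 and 36.6 RPKM in WT low Pi and 22.3, 20.1 and 17.7 RPKM in otu5 low Pi. AT5G50562 stood in control at 64.0, 73.5 and 97.5 RPKM in the WT libraries against 33.7, 41.6 and 19.3 in otu5, and in low Pi at 102, 73.3 and 72.5 against 23.4, 26.5 and 44.5. On control medium AT5G50565 measured 5.03, 5.07 and 4.80 RPKM in WT and 2.09, 2.74 and 1.41 RPKM in otu5, and on low Pi it measured 4.52, 6.05 and 4.35 RPKM in WT and 1.86, 2.02 and 2.06 RPKM in otu5. The level in otu5 was at 38.1% to 44.8% of WT in these 3 genes over both media. Low Pi changed none of them past the test. AT5G50665 lay at -1.27 and -1.12 and AT5G50530, near the filter at about 1 RPKM in WT, at -0.70 and -0.72. AT5G50530 passed the filter only through WT libraries and therefore had to be lower in otu5. AT5G50640, below the filter, had control means of 0.458 RPKM in WT and 0.124 RPKM in otu5, while SPL13A (AT5G50570), also below it, had 0.294 and 0.273 RPKM.

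Locus lengths repeat along this stretch. AT5G50560 and AT5G50660 are both 607 bp long, AT5G50565 and AT5G50665 both 2066 bp, and RefSeq gives the symbols SAE1B and HSD1 to 2 loci each. AT5G50660 was listed at 0 in all 12 libraries. Where loci are near-identical, how reads were shared between them is not given, so the split of values within the stretch is uncertain.

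**Figure D5:**
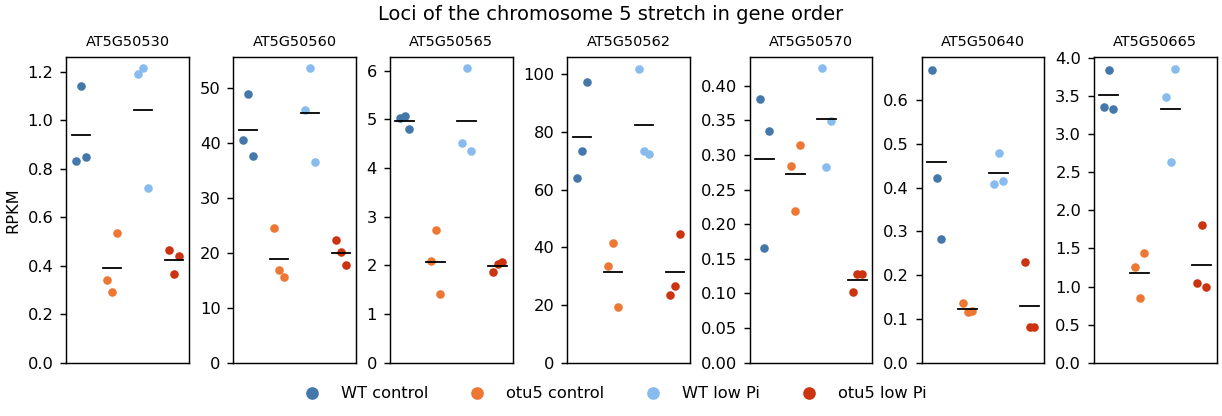
RPKM in each library, with a bar for the mean of 3, for 7 loci of the stretch on chromosome 5 in gene order; axes differ. In 6 of the 7 the otu5 points (orange, red) lie below the WT points (blue, light blue) on both media, and in AT5G50570 the control points overlap.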

How the data were processed

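RNA of 12 root libraries was used out of 36 samples in the series. The 8 methylation and 16 chromatin immunoprecipitation samples were not analysed here. Groups came from the titles, because the label on culture condition goes with genotype and, for 6 libraries, against the title. The labels name root as the tissue, but the RNA isolation text names rosette leaves. Values are the authors' deposited RPKM, with 1 column per library. The submitters' processing notes name TopHat2 2.0.4, Cuffdiff and TAIR10 with no role, and the sources used here do not give the scaling or the use of strand. Read depth is unknown. Among genes under 0.3 RPKM, the steps of low values put relative depth between 0.669 and 1. Library sums ran from 993382 to 1330830 RPKM, and AT2G01021 took 21532 to 317971 RPKM, the most in WT control replicate 3.

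In R 4.3.3, limma 3.58.1 was fitted to log2(RPKM + 0.5) as 4 group means with 8 residual degrees of freedom and moderation with trend and robust estimation, adjusted by Benjamini-Hochberg over 20411 genes at a threshold of 0.05. Differences on this scale understate changes of low values. The fit was tested on simulated data. The members and lists were chosen with earlier results of these data known. Named genes are the 10 lowest in otu5, the 8 most abundant in WT, and up to 5 largest rises and 5 largest falls in low Pi. Members on the lists, members next to each other and those nearest the limit were also named. A further 44, AT1G05990 and the families were chosen after their values were seen. Family members were found by RefSeq symbol or synonym. No genome came with the data, so the planned motif search in promoters was not run and no sequence is shown. Alternatives were other pseudocounts, filters, scaling and limits, limma without trend, a replicate block (also in WT alone, added after the data were seen), and each library left out.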

Additional observations from a re-analysis of the deposited data

How the results depend on the processing

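The size of the set depended most on the limit: 29 genes met a difference of at least 1, all of them among the 167, while 222 met the rule when overlap was allowed. Pseudocounts of 1 and 0.1 gave 137 and 199 genes, no filter 175, a filter of 5 RPKM 124 and quantile normalization 167 (160 shared). With each library left out, 148 to 200 genes met the rule.

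With each library left out, the low Pi effect averaged over genotypes gave 1359 to 2288 genes higher and 1139 to 2014 lower (1139 without otu5 control replicate 3), with 3 to 9 of the 167 higher and 41 to 64 lower. For otu5 against WT in control, the ranges were 325 to 1045 genes higher, 377 to 1230 lower and 58 to 142 of the 167 lower. The 58 came without otu5 control replicate 2, and 68, 72 and 69 without WT control replicates 1 and 3 and otu5 control replicate 3. For low Pi they were 282 to 883 higher, 531 to 1368 lower and 95 to 151 of the 167 lower, with 95 without WT low Pi replicate 1 and again without otu5 low Pi replicate 1. The OTU5 difference stayed between -4.62 and -4.36 in control and between -5.10 and -4.75 in low Pi.

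Replicate numbers are shared between groups. Over all groups, 6 of 18 same-numbered pairs had a correlation of deviations over 0.1, so the numbers did not pair the libraries throughout. Between WT control and WT low Pi all 3 did (0.114 to 0.259, against -0.175 to -0.0203 for other numbers), and between the otu5 groups 0 of 3 did. With a replicate block, 57 of the 167 were lower and 8 higher in low Pi, 114 were lower in otu5 in control and 140 in low Pi. With a block in the WT libraries alone, chosen after seeing the data, these were 61, 8, 134 and 152. AT5G19890 passed under both blocks (adjusted p = 0.0334 and 0.0475, limma), as did AGP14 (0.029 and 0.0296) and EXPB1 (0.0496 and 0.0226); CLE6 passed under the first (0.0422) and AGP22 under the second (0.0255). Over 80 named genes, 4624 of 4764 values under the alternatives kept direction and side of the threshold, or moved by less than the spread, and 0 reversed. Most of these values are the genotype differences that chose the genes. Their direction was largely fixed by the rule, so nothing is read from this tally. The low Pi call of FRO4 was lost under quantile normalization (limma adjusted p = 0.0572) and a pseudocount of 0.1 (0.0694), and that of ANNAT1 with no filter (0.0588) and with limma run without trend and robust estimation (0.0546). The cause of these shifts was not tested. Unknown read depth limits what can be said of genes near 1 RPKM.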
